A study of Mus musculus with 10 samples.

Results

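The 10 genes described here were grouped under the macrophages of the splenic marginal zone, from the 54532 genes of a spleen RNA-seq table. They are the C-type lectins Cd209a, Cd209b, Cd209c, Cd209d, Cd209e and Cd209g, the scavenger receptors Marco and Msr1, the sialic acid receptor Siglec1 and the nuclear receptor Nr1h3. Not all are particular to these macrophages, as Cd209a is the family member of dendritic cells and Msr1 is on most tissue macrophages. The 10 genes were taken by name, by no cut on a measured value, but with earlier results of these data known. The spleens came from 5 DUSP6 KO mice carrying the Dusp6tm1Jmol allele and 5 wild-type (WT) C57BL/6J mice, 1 library per mouse, and DUSP6 is the phosphatase that removes the activating phosphates from ERK. Mice of both genotypes had KRN serum-induced arthritis (KSIA): each received pooled serum of arthritic KRN x NOD F1 offspring into the peritoneum on days 0 and 2, and the spleens were taken on day 9. The sample labels call the genotype DUSP6 Knockdown where the protocol gives a knockout, both strains were bought from a supplier and were not stated to be littermates, and there was no group without arthritis. The mice's age was not in the labels. The comparison asks how these genes differ in a spleen without DUSP6 during arthritis. Several of them mark the macrophages that sample blood at the marginal zone.

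The marginal zone is the border between the white and the red pulp of the spleen, where blood leaves small arteries and slows. An outer ring of marginal zone macrophages carries MARCO and the CD209b lectin, also called SIGNR1, and takes up particles, bacteria and polysaccharides. An inner ring of metallophilic macrophages carries SIGLEC1, also called CD169, which binds sialic acid on cells and viruses. The liver X receptor alpha, encoded by Nr1h3, is a sterol sensor that both kinds of macrophage need to form in mice.

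Gene reads recovered per library numbered 14990474 to 19822673 for the DUSP6 KO mice and 15611652 to 18422147 for the WT mice. Dusp6 was between 0.308 and 0.624 FPKM in the DUSP6 KO libraries and between 16.6 and 24.0 FPKM in WT, so each library matched its genotype, where FPKM is the fragments counted on a gene, scaled by gene length and library size. The protocol names male and female mice, and all 10 libraries had the expression of males, with Xist at or below 0.0206 FPKM and Ddx3y at or above 14.4 FPKM. WT replicate 67 stood apart. The summed level of 7 exocrine pancreas genes was 12687 FPKM there and 162 FPKM in WT replicate 65, against 9.52 to 26.2 FPKM in the other libraries. Its median correlation with the other libraries was 0.912, the lowest of a range up to 0.938, and the values that turn on it are also given without it.

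Of the 10 genes, 9 had a mean of at least 0.1 FPKM and entered the test, a limma fit over 21296 genes, and Cd209g did not. At a limma adjusted p of 0.05, 0 of the 9 were called with all 10 libraries, against 0.0704% of all genes tested. Limma voom on the recovered reads called 0 as well. The authors tested counts with DESeq2, another method, and list Marco and Cd209b among their genes significantly higher in DUSP6 KO. The significance calls of these genes thus differed between methods. The paper's log2 fold changes for both were also positive and of similar size to those given below. Without adjustment, a limma p under 0.05 was met by 3 of the 9 with the higher level in DUSP6 KO, against 2.62% of all genes, and 0 were lower. These were Marco, Cd209b and Cd209d. In the same 3 genes every DUSP6 KO library was above every WT library, which held for 0.549% of all genes tested. The log2 fold change was positive for 8 of the 9 with a median of 0.29, beside a median of -0.0046 and 49.0% positive over all genes. The list was drawn up with earlier results of these data known, so these counts do not come from a blind choice. In whole spleens, more or fewer cells of a type and more or less RNA per cell cannot be told apart.

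The exons of Marco, Cd209b and Cd209d overlapped no other gene in the annotation, and no window of 50 bases in their longest transcripts recurred in a transcript of another gene. Marco (ENSMUSG00000026390) occupies GRCm38 chr1:120474538-120505024, Cd209b (ENSMUSG00000065987) chr8:3917655-3926844 and Cd209d (ENSMUSG00000031495) chr8:3871824-3878555, all on the minus strand. The bases before their start sites, read from RefSeq promoters of build GRCm38.p6, are shown because these were the members whose genotypes did not overlap. Bases that the table's gene model already counts as exon were left off, and each run goes 5′ to 3′ along the gene's strand. Capitals mark the motif GAGGAA or CCGGAA, cores bound by PU.1 and by other ETS factors, on either strand. The windows are chr1:120505025-120505274 for Marco, chr8:3926845-3927091 for Cd209b and chr8:3878556-3878749 for Cd209d.
Marco: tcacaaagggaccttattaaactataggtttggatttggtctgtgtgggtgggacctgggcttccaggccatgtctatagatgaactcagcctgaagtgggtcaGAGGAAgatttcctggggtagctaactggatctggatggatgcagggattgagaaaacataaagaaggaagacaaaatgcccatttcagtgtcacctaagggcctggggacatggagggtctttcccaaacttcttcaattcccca
Cd209b: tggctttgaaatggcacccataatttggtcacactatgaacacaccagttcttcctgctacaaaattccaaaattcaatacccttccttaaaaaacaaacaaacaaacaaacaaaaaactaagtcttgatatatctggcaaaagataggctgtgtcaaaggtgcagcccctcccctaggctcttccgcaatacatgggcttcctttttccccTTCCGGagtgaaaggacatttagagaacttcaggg
Cd209d: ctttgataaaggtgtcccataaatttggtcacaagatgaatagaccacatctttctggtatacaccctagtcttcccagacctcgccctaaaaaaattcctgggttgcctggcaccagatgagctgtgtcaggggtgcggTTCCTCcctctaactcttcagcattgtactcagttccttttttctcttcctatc

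The motif GAGGAA was present on either strand in the 250 bases before the start of Marco and Cd209d, and in 23.3% of the 32851 promoters of that length in the table. CCGGAA was present before Cd209b and also before Cd209a, Cd209e, Cd209g and Nr1h3, and in 12.0% of all promoters. Nr1h3 has 2 promoters in the table and was counted if either held the motif, while the share counts each promoter. The motif occurrences did not overlap each other. The AP-1 motif TGANTCA, where N is any base, was found before Cd209g alone among the 8 members with a promoter in the table and in 6.75% of all promoters. The MAF half-site TGCTGAC was found before none of the 8 members and in 3.81% of all promoters. In gapped alignments of the 250-base windows, Cd209b and Cd209d had 153 identical bases, or 61.2% of the window length. The pair of Cd209d and Cd209e was at 58.8%, and the pairs of Cd209a with Cd209b and Cd209d at 54.8% and 52.4%. Cd209g and its neighbour Cd209f, both barely detected, had the closest promoters, at 83.6%. The lowest pair of the family, Cd209c and Cd209g, was at 47.2%. Unrelated promoters were not aligned, so how far these shares exceed those of unrelated sequence is not known. No window was compared with a measurement of factor binding.

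Marco, the class A scavenger receptor of the outer ring that binds bacteria and apoptotic cells, was the most abundant member in both genotypes. In DUSP6 KO, replicates 26, 21, 73, 01 and 03 stood at 84.8, 129.9, 145, 96.4 and 142 FPKM. In WT replicates 65, 67, 73, 77 and 83 it was 64.9, 81.8, 68.3, 62.8 and 80.2 FPKM. All DUSP6 KO libraries were above all WT libraries, by a narrow margin between the lowest DUSP6 KO replicate, 26, and the highest WT replicate, 67. The means were 119.6 ± 27.3 FPKM in DUSP6 KO and 71.6 ± 8.85 in WT (SD, n = 5 each). This was a log2 fold change of 0.72 (SE 0.16, 95% interval 0.36 to 1.07), or 1.64-fold, with a limma adjusted p of 0.34. The two-sided exact permutation test, not adjusted, gave p = 0.0079, the smallest that 5 against 5 can give. Every gene whose groups do not overlap gets this p, so it restates the lack of overlap. By limma p Marco ranked 32 among the genes with a positive fold change, Cd209b 41 and Cd209d 219. The reads behind these values were 3046 to 4860 in DUSP6 KO and 2009 to 3006 in WT.

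**Figure D1:**
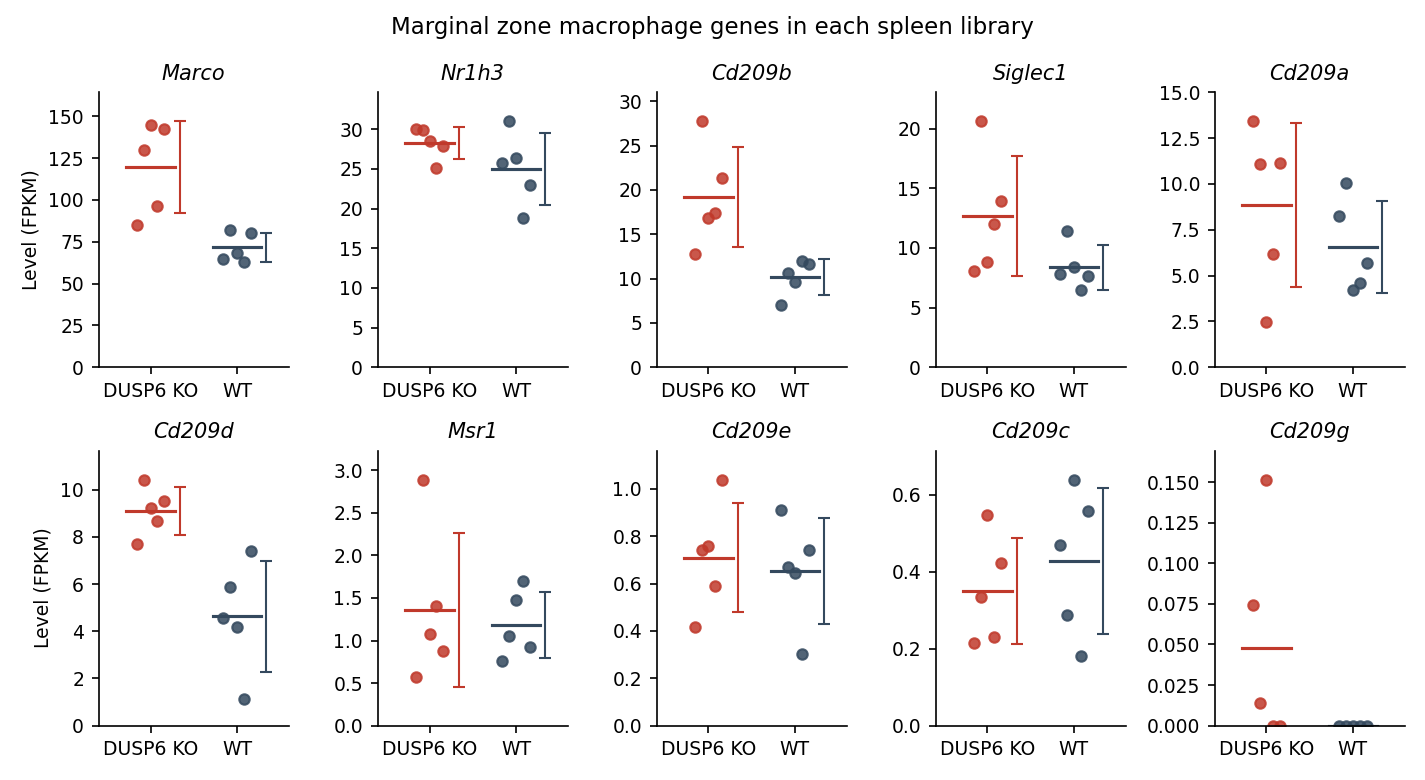
Level in FPKM (y axis, linear from 0, a different scale in each panel) of each of the 10 genes in the 5 DUSP6 KO (red) and 5 WT (blue) libraries, with the mean as a line and the SD as a bar beside it (no SD for Cd209g). The groups did not overlap for Marco, Cd209b and Cd209d, and Cd209g had no read in WT.

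Cd209b encodes SIGNR1, the lectin with which marginal zone macrophages bind dextran and the capsule of pneumococci. In DUSP6 KO the levels were 12.8, 27.7, 16.9, 17.4 and 21.4 FPKM for replicates 26, 21, 73, 01 and 03. The WT values were 7.02, 10.6, 9.65, 12.0 and 11.6 FPKM in replicates 65, 67, 73, 77 and 83. Again the groups did not overlap, DUSP6 KO replicate 26 was the nearest to WT, and replicate 21 was the highest. The difference was 0.89 on the log2 scale (SE 0.21, 95% interval 0.43 to 1.34), or 1.85-fold, with a limma adjusted p of 0.36 and a two-sided exact permutation p of 0.0079. Mean levels were 19.2 ± 5.63 FPKM in DUSP6 KO and 10.2 ± 1.99 in WT (SD, n = 5 each).

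Cd209d encodes SIGNR3, the family member known for binding mycobacteria. Replicates 26, 21, 73, 01 and 03 of DUSP6 KO gave 7.70, 10.4, 9.21, 8.69 and 9.51 FPKM. In WT replicates 65, 67, 73, 77 and 83 it was 4.58, 5.87, 4.16, 1.11 and 7.41 FPKM. The groups did not overlap, the DUSP6 KO values lay close together, and the WT values were spread widely with replicate 77 far below the rest. DUSP6 KO averaged 9.10 ± 1.004 FPKM and WT 4.63 ± 2.34 FPKM (SD, n = 5 each). On the log2 scale the fold change came to 1.18 (SE 0.41, 95% interval 0.28 to 2.08), or 2.26-fold, with a limma adjusted p of 0.75 and a two-sided exact permutation p of 0.0079. Without WT replicate 77, which had 17 reads of Cd209d against 66 to 186 in the other libraries, the log2 fold change was 0.74 (limma adjusted p = 0.42).

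The other Cd209 genes were lower or varied more within a genotype. Cd209a is the family member of dendritic cells. In DUSP6 KO its levels were 13.4, 11.1, 2.46, 6.15 and 11.2 FPKM for replicates 26, 21, 73, 01 and 03. In WT replicates 65, 67, 73, 77 and 83 it stood at 8.28, 10.1, 4.21, 4.60 and 5.71 FPKM. The groups overlapped over most of their range, and the lowest library of all was DUSP6 KO replicate 73. Its log2 fold change was 0.29 (SE 0.44, 95% interval -0.68 to 1.26), with a limma adjusted p of 0.99 and a two-sided exact permutation p of 0.58. Without DUSP6 KO replicate 73 it was 0.69, with a limma adjusted p of 0.87 and an exact permutation p of 0.095. Without DUSP6 KO replicate 26 it was 0.086, with an exact permutation p of 0.87, and without DUSP6 KO replicate 21, DUSP6 KO replicate 03 or WT replicate 73 it was 0.15.

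Cd209e and Cd209c, both low in spleen, did not separate the genotypes. Cd209e ranged from 0.416 to 1.04 FPKM in DUSP6 KO and from 0.300 to 0.909 FPKM in WT, with a log2 fold change of 0.12 (95% interval -0.53 to 0.77, two-sided exact permutation p = 0.67). Cd209c ranged from 0.215 to 0.547 FPKM in DUSP6 KO and from 0.181 to 0.639 FPKM in WT, with a log2 fold change of -0.20 (95% interval -0.93 to 0.54, two-sided exact permutation p = 0.56). It was the only tested member with a negative value. Its longest transcript shared 22.4% of its windows of 50 bases with transcripts of other genes, so reads in those windows may also fit other genes. Whether this raised or lowered the count of Cd209c was not tested.

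Cd209g had 5, 1, 8, 0 and 0 reads in DUSP6 KO replicates 26, 21, 73, 01 and 03 and 0 reads in every WT library. The reads lay in 3 DUSP6 KO libraries and in no WT library. The 0 reads in WT allow up to 3 reads over the 5 libraries together, beside 14 reads in DUSP6 KO, and this limit covers counting error only. The gene was under the filter on low values and no fold was formed. In a fit without the filter on low values its limma adjusted p was 0.90. Cd209g shared 13.9% of its 50-base windows with Cd209f, its neighbour in the family, so reads in those windows may also fit Cd209f.

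The 6 Cd209 genes lay within 394 kb at chr8:3743397-4137707 of GRCm38, and the values differed from gene to gene along it. All were on the minus strand except Cd209g. Cd209d and Cd209b are next to each other in the row of family members and were the 2 with non-overlapping groups, while Cd209e and Cd209c, which flank them, were at log2 fold changes of 0.12 and -0.20. The span held 12 further genes, mostly pseudogenes, of which 3 had enough signal to be tested. Of these, 0 were higher and Gm16589, a processed pseudogene, was lower in DUSP6 KO with a log2 fold change of -0.53, and it met an unadjusted limma p under 0.05 only. The span was examined after the values had been seen. The longest transcripts of Cd209b and Cd209d were identical at 80.3% of 883 aligned bases, the closest pair among the 6 members, and neither had a 50-base window in common with any other gene.

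**Figure D2:**
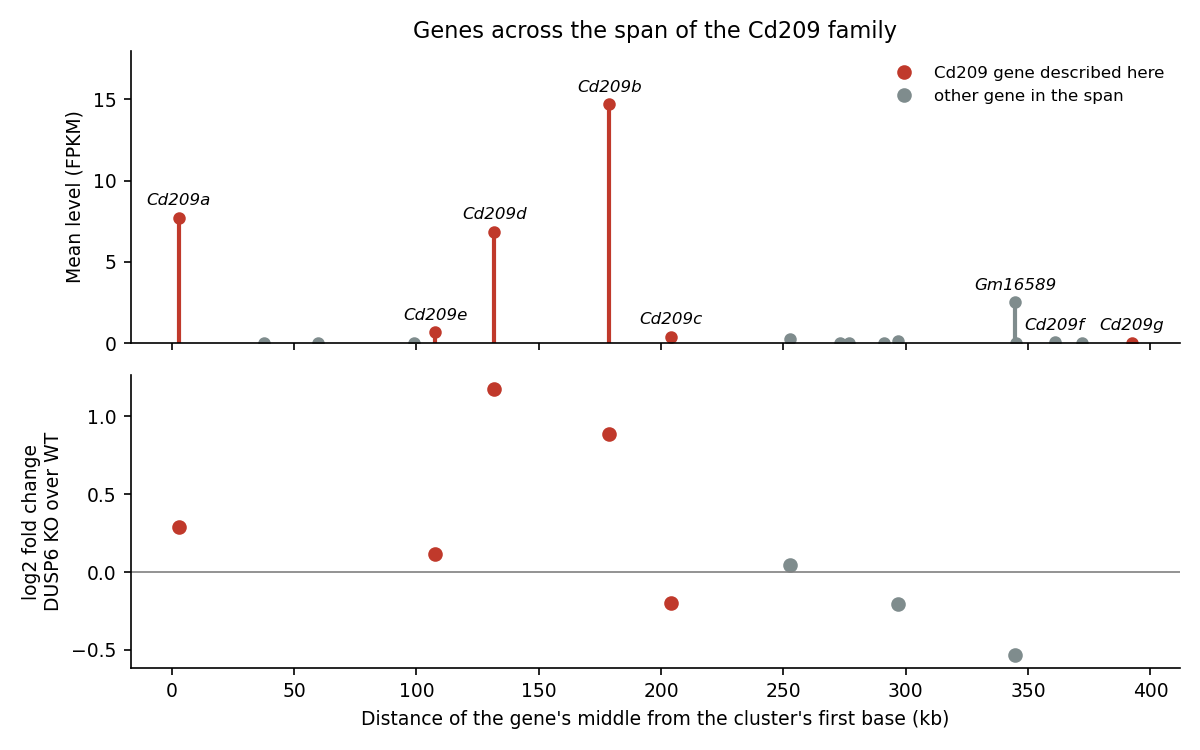
Mean FPKM over the 10 libraries (upper panel) and log2 fold change of DUSP6 KO over WT (lower panel, tested genes only) against the distance in kb from the first base of the Cd209 span, with the 6 Cd209 genes described here in red and the 12 other genes in grey. Cd209d and Cd209b, side by side, had the highest fold changes, and the family members next to them were at 0.12 and -0.20.

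Siglec1 (ENSMUSG00000027322, chr2:131069220-131086765) encodes the CD169 receptor of the inner ring. For DUSP6 KO replicates 26, 21, 73, 01 and 03 it read 8.07, 20.6, 8.84, 12.0 and 13.9 FPKM. In WT it read 7.80, 11.4, 8.39, 6.50 and 7.69 FPKM in replicates 65, 67, 73, 77 and 83. DUSP6 KO was higher in 22 of the 25 pairs of a DUSP6 KO and a WT library, but the groups overlapped, and DUSP6 KO replicate 21 was well above all others. Its log2 fold change was 0.54 (SE 0.25, 95% interval -0.0037 to 1.08) with a limma adjusted p of 0.89 and a two-sided exact permutation p of 0.063. Without DUSP6 KO replicate 21 the log2 fold change was 0.34 (exact permutation p = 0.13), and without WT replicate 67 it was 0.66 (exact permutation p = 0.032). Siglec1 is a long gene with 772 to 2862 reads per library.

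Nr1h3 (ENSMUSG00000002108, chr2:91184061-91202834), the sterol sensor, was next to Marco in level and varied the least among the DUSP6 KO mice. It stood at 30.0, 29.9, 28.5, 25.1 and 27.9 FPKM for DUSP6 KO replicates 26, 21, 73, 01 and 03. It was 25.7, 31.0, 26.4, 18.8 and 22.9 FPKM in WT replicates 65, 67, 73, 77 and 83. The groups overlapped and the highest library was a WT one, replicate 67. Its log2 fold change was 0.19 (SE 0.12, 95% interval -0.074 to 0.46) with a limma adjusted p of 0.95 and a two-sided exact permutation p of 0.17. Without WT replicate 67 it was 0.28, with an exact permutation p of 0.048 and a limma adjusted p of 0.88. Without WT replicate 77, the lowest library, it was 0.098, with an exact permutation p of 0.35. In the annotation 34 of the 2515 exon bases of Nr1h3 were also exon of Gm13783 on the same strand.

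Msr1, scavenger receptor A, which takes up modified lipoproteins on most tissue macrophages, was low in spleen. DUSP6 KO replicates 26, 21, 73, 01 and 03 had 0.566, 2.89, 1.08, 1.41 and 0.874 FPKM. WT replicates 65, 67, 73, 77 and 83 had 0.756, 1.06, 1.47, 1.70 and 0.924 FPKM. The WT values lay inside the DUSP6 KO range, whose top was replicate 21 alone. Its log2 fold change was 0.053 (SE 0.38, 95% interval -0.78 to 0.88, two-sided exact permutation p = 0.90), and it became -0.25 without DUSP6 KO replicate 21.

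**Figure D3:**
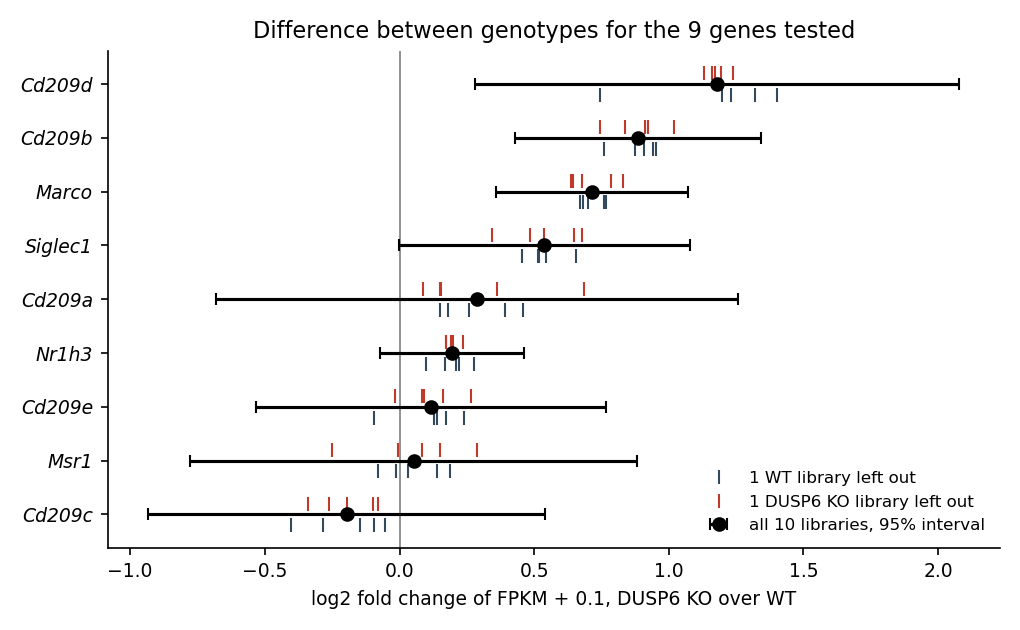
The log2 fold change of FPKM + 0.1 (x axis, DUSP6 KO over WT) for the 9 tested genes, with the 95% limma interval over all 10 libraries in black and the values with 1 library left out as red (DUSP6 KO) and blue (WT) ticks. The intervals of Cd209d, Cd209b and Marco lay above 0, that of Siglec1 reached -0.0037, and leaving out WT replicate 77 moved Cd209d from 1.18 to 0.74.

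Per length, the order of mean levels in DUSP6 KO was Marco, Nr1h3, Cd209b, Siglec1, Cd209d, Cd209a, Msr1, Cd209e, Cd209c and Cd209g. In WT the order was the same except that Cd209a came before Cd209d. Within single libraries, the higher gene of a neighbouring pair was above the next one in all 5 libraries for 6 of the 9 pairs in DUSP6 KO and for 4 of the 9 in WT, with 4 further WT pairs in that order in 4 libraries. The pairs whose order was mixed were Cd209d and Cd209a in DUSP6 KO, with 2 of 5 libraries in the order of the means, and Cd209b and Siglec1 in WT, with 3 of 5. Across libraries, the ranges did not overlap for Marco and Nr1h3 and for Cd209c and Cd209g in either genotype, and for Nr1h3 and Cd209b in WT, while the other neighbours overlapped.

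The libraries did not move alike for all members. DUSP6 KO replicate 21 was the highest library of all for Cd209b, Cd209d, Siglec1 and Msr1. DUSP6 KO replicate 26 was the lowest of its group for Marco, Cd209b, Cd209d, Siglec1, Msr1, Cd209e and Cd209c, yet the highest of all for Cd209a. WT replicate 77 was the lowest WT library for Marco, Cd209d, Cd209e, Cd209c, Siglec1 and Nr1h3, and the highest for Cd209b and Msr1. After subtracting each genotype's mean, the Pearson correlation over the 10 libraries was 0.76 between Cd209b and Msr1, 0.67 between Cd209d and Nr1h3, 0.65 between Cd209b and Siglec1 and 0.56 between Cd209b and Marco. It was -0.031 between Cd209b and Cd209d. These correlations describe 10 libraries that share depth and tissue composition within each library.

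**Figure D4:**
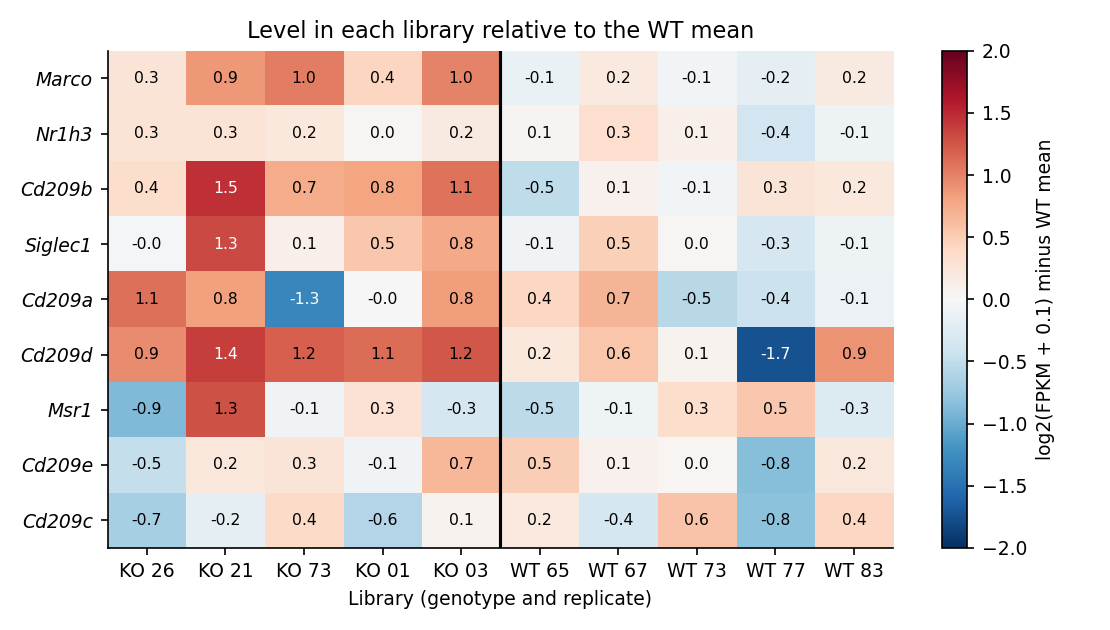
Level of the 9 tested genes (rows) in each library (columns, DUSP6 KO left and WT right of the black line) as log2(FPKM + 0.1) minus the WT mean, from -2 (blue) to 2 (red). The Marco, Cd209b and Cd209d rows were above 0 in all DUSP6 KO libraries, and WT replicate 77 was low for Cd209d, Cd209e and Cd209c.

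Among the 13422 genes averaging 1 FPKM or more, those whose deviations from the genotype means were most like a member's were different for each member. For Marco they were Wdr37 (r = 0.94) and Gstt2 (r = 0.92), for Cd209b Slc35d3 (r = 0.98) and Gm26779 (r = 0.97), and for Cd209d Gm49041 (r = 0.96). For Siglec1 they were Tie1, Nek9 and Smad5 (all r = 0.98), followed by Eng at 0.97. For Nr1h3 they were Smim19 (r = 0.97), Gm17194 and Id3 (both r = 0.96). Atp1b3 came first for Cd209a and Slco3a1 for Msr1 (both r = 0.98). They are the highest values among many genes over 10 libraries and are given as a description, with no test.

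Other macrophage genes were read from lists of named genes. Over all genes tested, 49.0% were positive, and 2.62% were higher and 3.03% lower at an unadjusted limma p under 0.05. These shares stand beside the counts of every list. Of 18 red pulp macrophage markers tested, 14 were positive, 4 met an unadjusted limma p under 0.05 with the higher level in DUSP6 KO and 0 with the lower, with a median log2 fold change of 0.079. Timd4, a receptor for phosphatidylserine on dying cells that marginal zone macrophages also carry, averaged 56.3 ± 14.3 FPKM without DUSP6 and 31.5 ± 4.13 FPKM in WT (SD, n = 5 each), which is 0.81 on the log2 scale (limma adjusted p = 0.26). Treml4, which is also on the list of monocyte markers and counted there, was at a log2 fold change of 0.47. Adgre1, which encodes F4/80, was at 0.38. In these 3 genes every DUSP6 KO library was above every WT library, which held for 0.549% of all genes tested. Cd163, the haemoglobin scavenger receptor, was the fourth, at 0.39 with overlapping groups. The summed level of the list ranged from 1483 to 2199 FPKM in DUSP6 KO and from 1535 to 1859 FPKM in WT.

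Of 19 other scavenger receptors listed, 18 were tested, 11 were positive, 2 were higher at an unadjusted p under 0.05 and 0 were lower, with a median log2 fold change of 0.033. The 2 were Cd163 and Stab2, a hyaluronan receptor of sinus endothelium, at 0.30 on the log2 scale with a limma adjusted p of 0.88. Among 25 tested C-type lectins and Siglecs of myeloid cells, 9 were positive and the median was -0.14. Cd207, the langerin gene of Langerhans cells and some dendritic cells, ranged from 1.26 to 4.16 FPKM in DUSP6 KO and from 0 to 0.623 FPKM in WT, a log2 fold change of 2.72 on the FPKM + 0.1 scale (limma adjusted p = 0.27) with no overlap. Siglech, of plasmacytoid dendritic cells, was higher at 0.34 and Clec4a2, an inhibitory lectin, lower at -0.40 without adjustment.

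Partners and targets of the liver X receptor, such as Rxra, its heterodimer partner, gave no call. Of 24 listed, 21 were tested and 11 were positive, with 0 at an unadjusted p under 0.05 in either direction and a median log2 fold change of 0.017. Of 19 genes of the signals that maintain the marginal zone, 10 were positive and 1 was higher at an unadjusted p under 0.05. This was Csf1r, the receptor for the macrophage growth factor CSF1, with 153.5 ± 18.6 FPKM in DUSP6 KO against 118 ± 13.3 FPKM for WT (SD, n = 5 each), or 0.38 on the log2 scale (limma adjusted p = 0.56) with no overlap. Of 10 marginal zone B cell markers 6 were positive, and Asb2 at 0.39 (limma adjusted p = 0.79) was the 1 that was higher without adjustment, with a median of 0.010. Across all 15 lists limma called 0 genes at an adjusted p of 0.05 and limma voom called 1, the monocyte marker Vcan, which was lower in DUSP6 KO.

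**Figure D5:**
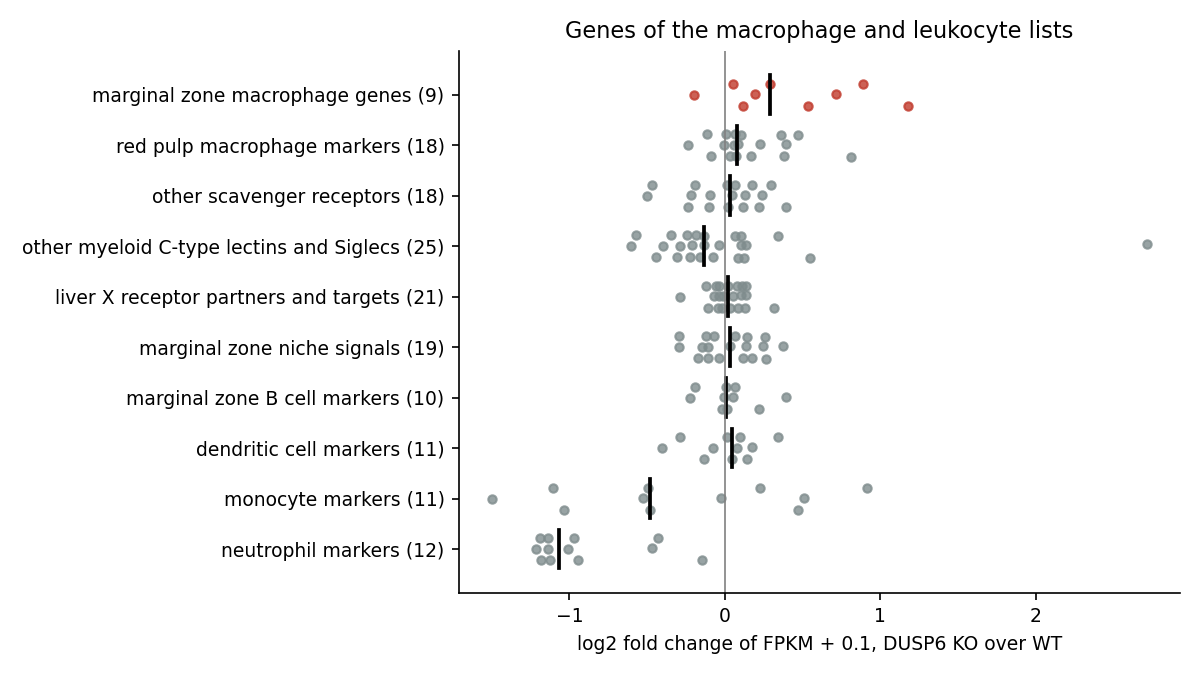
The log2 fold change of FPKM + 0.1 (x axis, DUSP6 KO over WT) of each tested gene of 10 lists (rows, number of genes in brackets), with the median as a black line. The median was 0.29 for the 9 tested members in red, labelled marginal zone macrophage genes though not all are particular to those cells. It was from -0.14 to 0.079 for the lists from red pulp macrophages to dendritic cells, -0.48 for monocyte markers and -1.07 for neutrophil markers.

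Markers of other cells were read beside these values, and limma called none of them at an adjusted p of 0.05. All 12 neutrophil markers were negative, 7 of them at an unadjusted p under 0.05, against 3.03% of all genes lower at that p, with a summed level of 604 to 2034 FPKM in DUSP6 KO and 1172 to 5126 FPKM in WT. The highest sum was in WT replicate 77, where Cd209d was lowest and Cd209b was the highest of the WT libraries. Of 11 monocyte markers 6 were lower and 3 higher without adjustment, against 3.03% and 2.62% of all genes. Their sums were 161 to 232 FPKM in DUSP6 KO and 215 to 353 FPKM in WT. Of 12 stroma and endothelium markers only 7 were positive, with a median log2 fold change of 0.23. Without adjustment 3 were higher, Sparc, Tlx1 and Pdgfrb, against 2.62% of all genes, and 0 were lower. The sums were 267 to 393 FPKM in DUSP6 KO and 251.8 to 309 FPKM in WT. Of 11 dendritic cell markers tested 1 was higher and Itgae was lower, with sums of 68.3 to 93.5 FPKM against 61.4 to 91.3 FPKM. None of the listed markers was without reads in all libraries. Their part in the values of the 10 genes was not tested. Without WT replicate 77 the log2 fold changes of Marco, Cd209b and Cd209d were 0.67, 0.95 and 0.74, and the median of the neutrophil markers was -0.72 in place of -1.07.

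For 7 B cell markers, 7 T cell markers and 7 erythroid markers, 0 were past an unadjusted p of 0.05 in either direction, with median log2 fold changes of -0.18, -0.013 and 0.32. The erythroid sum was lowest, 17656 FPKM, in DUSP6 KO replicate 21, where Cd209b, Cd209d, Siglec1 and Msr1 were highest. It was highest, 91002 FPKM, in DUSP6 KO replicate 73, where Marco was highest and Cd209a lowest. Of 6 mesothelium markers 1 was lower, with sums of 2.98 to 6.30 FPKM in DUSP6 KO and 3.32 to 14.8 FPKM in WT. Without WT replicate 67, the library rich in pancreas genes, the log2 fold changes were 0.77 for Marco, 0.91 for Cd209b and 1.32 for Cd209d, and 5 members were higher at an unadjusted p under 0.05, with Siglec1 and Nr1h3 added. None had an adjusted p of 0.05 or less there. The share of all genes higher at an unadjusted limma p under 0.05 was counted with all 10 libraries only, where it was 2.62%.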

How the data were processed

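Spleen RNA-seq values of 5 DUSP6 KO and 5 WT mice were analysed. The authors aligned paired-end reads, counted them per gene with featureCounts 1.5.0-p3 (strand setting not given in the sources used here) and deposited FPKM. The submitters' notes name a human build, but 98.3% of the table's genes found in GENCODE M21 had identical GRCm38 coordinates, so GRCm38 was used. FPKM times gene length was a whole multiple of 1 step in every library, within 0.001, which gave the reads behind each value.

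Genes averaging 0.1 FPKM or more were tested as log2(FPKM + 0.1) with limma 3.58.1 in R 4.3.3 (moderated test with a trend, Benjamini-Hochberg over all genes, threshold 0.05). Fold changes on this scale understate changes of low genes. Single genes were also compared by exact two-sided permutation tests (scipy 1.17.1), whose p-values are given without adjustment. The members and lists were chosen with earlier results of these data known. Named genes were all members, the 3 lowest p per list and, for each member averaging 1 FPKM or more, the 5 genes most like it by group-centred Pearson correlation. The script was tested on simulated data. Alternatives were other pseudocounts, filters, scalings, limma voom on recovered reads and leaving out each library. Rescaling to recovered reads was chosen after seeing the data. p-values measure the spread between mice of 1 experiment.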

Additional observations from a re-analysis of the deposited data

How the results depend on the processing

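No paired analysis was possible because the genotypes share only the number 73 among their replicate numbers. Under 10 other settings 0 members passed the adjusted threshold, and leaving out each library in turn gave 0 as well. The adjusted p ranged from 0.15 to 0.63 for Marco and from 0.23 to 0.65 for Cd209b. Marco, Cd209b and Cd209d kept their direction and an unadjusted p under 0.05 in all of these. The number of members higher at an unadjusted p under 0.05 was 3, and between 3 and 5 with 1 library left out (5 without DUSP6 KO replicate 73 and 5 without WT replicate 67). By the exact permutation test it was also 3, and between 3 and 5 (5 without WT replicate 67). The matching share of all genes was counted for the main limma fit with all 10 libraries only (2.62%). Centring on the median also took Siglec1 under an unadjusted p of 0.05, as did leaving out DUSP6 KO replicate 26, DUSP6 KO replicate 73 or WT replicate 67. With 1 library left out the log2 fold change of Msr1 ran from -0.25 to 0.29 and that of Cd209e from -0.095 to 0.27, so the direction of either turned with single libraries, and the cause was not tested. Among the listed genes the count with an adjusted p of 0.05 or less was 0, with 1 under limma voom, Vcan, and between 0 and 1 with 1 library left out (Sparc without DUSP6 KO replicate 26 and Cxcr2 without DUSP6 KO replicate 21). Depth limits Cd209g, Cd209c and Cd209e, which had 0 to 31 reads per library.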
